A study of Oryza sativa with 12 samples.

Results

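The genes described here are those to which the deposited files give a ribosomal protein symbol, that is, RPL or RPS followed by a number. There are 29 of them among 112071 listed features, of which 37830 are reference genes and 2079 of those carry a symbol, so rice ribosomal protein genes without a symbol are not analysed here. RNA came from 14-day-old seedlings of rice cultivar ZH11 grown under 12 h of light and 12 h of darkness. The 4 groups were wild type and PKG-/- seedlings (called pkg below), each left untreated (control) or treated for 5 h with Br-cGMP at 10 µM. Br-cGMP is a brominated form of the second messenger cGMP. Each group held 3 libraries, which the series calls biological repetitions. PKG is a cGMP-dependent protein kinase, and the series title places it in gibberellin signalling. The labels name neither the mutant allele nor the number of lines behind it, and they give no mock treatment for the controls.

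Ribosomes translate mRNA and are built from a small and a large subunit, each holding ribosomal RNA and many different proteins. A plant cell has cytosolic ribosomes, whose proteins are all encoded in the nucleus, and bacterial-type ribosomes in plastids and mitochondria. Plastid ribosomes take part of their proteins from the plastid genome and part from nuclear genes, and they make the plastid-encoded subunits of the photosynthetic complexes. Genes for cytosolic ribosomal proteins are known for being highly expressed in dividing and growing tissue and for being expressed in step with each other.

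The 29 genes were separated by identifier, chromosome and name. No feature of the files lies on a plastid or mitochondrial chromosome, so no organelle-encoded ribosomal protein gene could be described. Of the nuclear genes, 4 were taken as plastid ribosomal proteins. RefSeq (assembly ASM3414082v1, matched by symbol and chromosome) gives RPL18 and RPL27 the synonyms CL18 and CL27, and another of the 4 has a synonym of the same style. RPL5 on chromosome 3 has no such synonym and was placed there from general knowledge of the rice L5 proteins, the cytosolic L5 being RPL5B and its neighbour on chromosome 1. The other 25 genes were taken as cytosolic, 15 of the small and 10 of the large subunit. None had a name that points to the mitochondrion.

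The reads assigned to features, recovered from the deposited FPKM (fragments per kilobase of feature, scaled by library size), ranged from 6667261 to 9438909 per library. The 29 genes took 0.502% to 1.03% of them. The identifier taken for PKG, OS02G0281000, for which the files give no symbol, ranged over 4.65 to 7.09 FPKM across wild type and over 3.68 to 9.29 FPKM across pkg libraries, so the genotype labels could not be checked from it. Wild type control 3, pkg control 3 and pkg Br-cGMP 3 were low in root genes: the summed FPKM of 4 such genes was 16.1, 6.91 and 13.9 there and 198 to 3422 in the other 9 libraries. Differences below are given as log2(FPKM + 1) ± standard error. They come from limma on the 25238 features that reached 1 FPKM in 3 or more libraries, with Benjamini-Hochberg adjustment over all of them. Fewer cells of a type and less RNA per cell cannot be told apart in such bulk samples.

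Levels differed widely between cytosolic genes. Genes without a symbol may encode the same proteins and are not counted here, so these levels do not give the supply of a protein. FPKM divides by feature length, so levels can be set side by side between genes, except that the split of reads between near-identical copies is uncertain. RPL9 of the large subunit (OS09G0485900, chromosome 9, 18752464 to 18754195, on a genome build that is not given) had the highest mean over the 12 libraries, at 1157 FPKM. RPS21 of the small subunit followed at 886 FPKM and the RPS16A copy on chromosome 11 at 652 FPKM. At the low end, RPS19B (OS03G0424500) stood at 1.61 FPKM and the RPS10-2 copy on chromosome 4 at 0.436 FPKM. Of the 20 cytosolic genes detected, 16 had a mean of 15 FPKM or more.

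**Figure D1:**
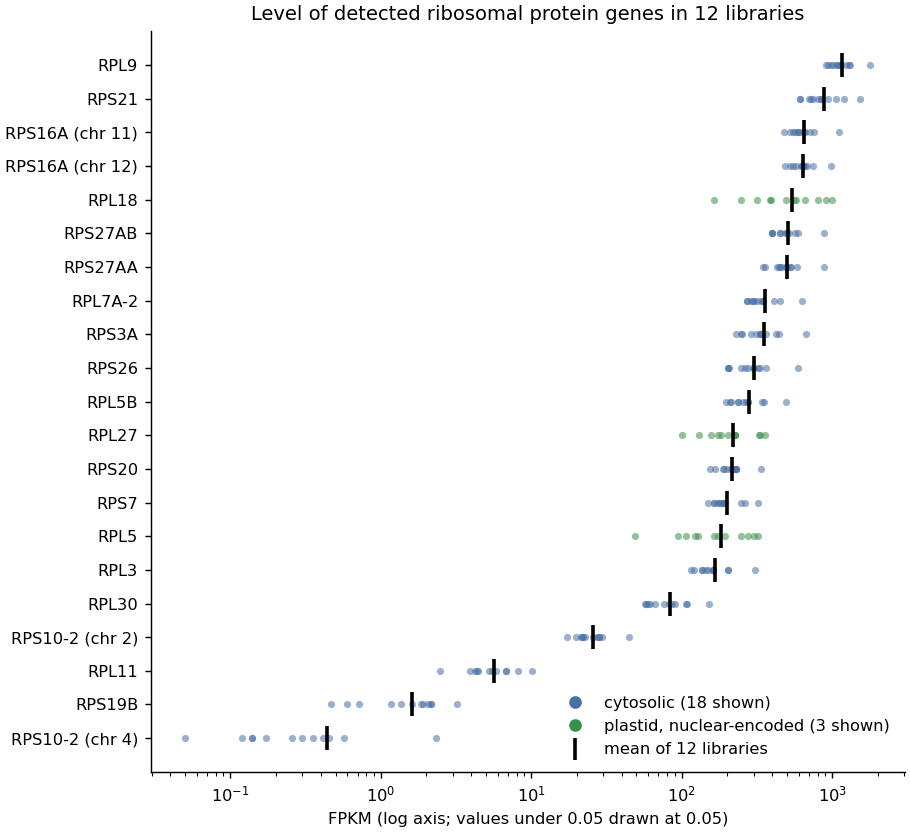
FPKM (log axis) of 21 detected ribosomal protein genes in the 12 libraries (points), with the mean over all 12 libraries (bar), cytosolic genes in blue and plastid genes in green. Means run from 0.436 FPKM for RPS10-2 on chromosome 4 to 1157 FPKM for RPL9, and the points of the plastid genes are spread more widely than those of cytosolic genes of like level.

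RPS4, RPL39A, RPL39C, the second RPS19B (OS03G0424800) and the RPL7A-2 copy on chromosome 9 were listed at 0 in all 12 libraries. Of these 5, RPS19B and RPL7A-2 share a symbol with a gene that had reads, and the RPL7A-2 copy on chromosome 8 was at 269.8 to 629.6 FPKM. How reads that match several copies were assigned is not given in the sources used here, and a 0 is not taken as absence. The 5 genes at 0 and the RPS10-2 copy on chromosome 4 could not be tested, which left 19 of 25 cytosolic and all 4 plastid genes. RPS19B (OS03G0424500) passed the minimum with at most 24 reads in any library, so it carries little weight.

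Of 3 pairs of gene copies with reads for both, 2 gave near-equal levels. The RPS16A copies on chromosome 11 (OS11G0127900, 1285452 to 1286251) and chromosome 12 (OS12G0124200, 1169749 to 1170460) lie in chromosome ends that are known to be duplicates of each other in rice. Their FPKM ratio had a median of 0.996 and ranged from 0.769 in pkg control 3 to 1.16 in pkg control 1. RPS27AA and RPS27AB both encode ubiquitin fused to the S27a protein of the small subunit, a fusion that is cut into its parts after translation. Their ratio had a median of 0.999 and a range of 0.878 to 1.07. The RPS10-2 pair was unequal, with 17.3 to 44.6 FPKM for the copy on chromosome 2 and 0 to 2.31 FPKM for that on chromosome 4.

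The cytosolic genes moved together from library to library. RPL9 was at 1231, 1791 and 1119 FPKM in wild type control 1, 2 and 3, at 1075, 1013 and 1069 in wild type Br-cGMP, at 1284, 914 and 1139.8 in pkg control, and at 1316, 941 and 987 in pkg Br-cGMP. RPS3A, a small subunit protein whose gene RefSeq also lists as CYC07, was at 335, 664 and 329.5 FPKM in wild type control, at 248, 287 and 363 in wild type Br-cGMP, at 425, 228 and 329 in untreated pkg and at 441, 314 and 251 in pkg Br-cGMP. Wild type control 2 was the highest library for both genes. It was the highest for 18 of the 19 tested cytosolic genes, the exception being RPS19B, which was highest in pkg Br-cGMP 1. The lowest library was pkg control 2 for 9 genes, pkg Br-cGMP 3 and wild type Br-cGMP 1 for 4 each and wild type Br-cGMP 2 for 2.

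The 4 plastid genes followed another order of libraries. RPL18, a large subunit protein (OS03G0828100, chromosome 3, 34785473 to 34787245), was at 1003, 392 and 555 FPKM in wild type control, at 914, 659 and 495 in wild type Br-cGMP, at 316, 388 and 799 in untreated pkg and at 579, 163 and 246 in pkg Br-cGMP. Its lowest library was pkg Br-cGMP 2, and wild type control 2, where nearly all cytosolic genes peaked, was the lowest of its group.

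RPL5 of the large subunit (OS03G0125000, chromosome 3, 1433749 to 1435315) was at 304, 128 and 174 FPKM in wild type control, at 319.7, 247 and 164 in wild type Br-cGMP, at 106, 122 and 274 in untreated pkg and at 194, 48.8 and 94.4 in pkg Br-cGMP. RPL27 of the large subunit (OS01G0924000, chromosome 1, 40453863 to 40455608) was at 329.9, 174 and 225 FPKM in wild type control, at 355, 226 and 202 in wild type Br-cGMP, at 131, 183 and 327 in untreated pkg and at 224, 99.9 and 157 in pkg Br-cGMP. All 4 plastid genes were lowest in pkg Br-cGMP 2. Wild type Br-cGMP 1 was the highest library for 3 of them and wild type control 1 for RPL18. The highest library of each gene held 3.55 times (RPL27) to 6.55 times (RPL5) the level of the lowest, against 1.96 times (RPL9) to 2.92 times (RPS3A) for the 16 cytosolic genes at 15 FPKM or more. RPL5 kept to the pattern of the genes that have a plastid synonym, whereas RPL5B, its cytosolic namesake, was highest in wild type control 2.

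**Figure D2:**
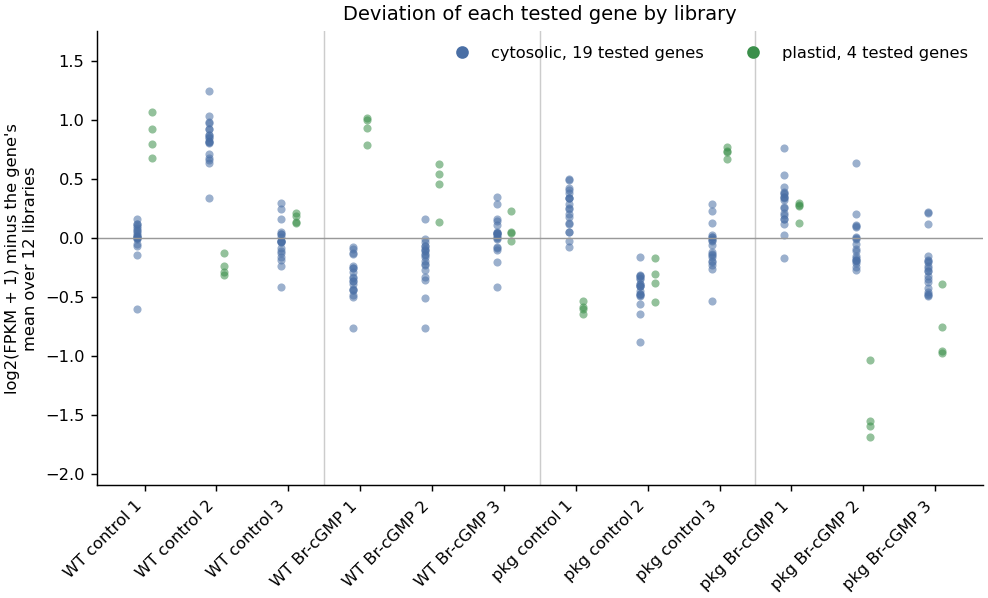
Level of each tested gene in each library, as log2(FPKM + 1) minus the mean of that gene over the 12 libraries, with 19 cytosolic genes in blue and 4 plastid genes in green. The cytosolic genes lie high together in wild type control 2, while the plastid genes lie high in wild type control 1, wild type Br-cGMP 1 and pkg control 3 and low in pkg Br-cGMP 2.

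Most of the spread of a gene between libraries of 1 group was shared with the other genes of its own set. The SD between libraries within groups had a median of 0.36 on the log2 scale for the 19 cytosolic genes, 0.69 for the 4 plastid genes and 0.48 for all features tested. With the mean deviation of the other genes of the same set taken off, the median SD was 0.12 for cytosolic and 0.14 for plastid genes. With the mean deviation of the plastid set taken off, it was 0.81 for cytosolic genes. For plastid genes it was 0.80 with that of the 16 cytosolic genes at 15 FPKM or more taken off. Taking off any series that a gene does not share raises its SD, so these values show only that the sets did not move together. Genes within a set are measured in the same libraries, so this describes these libraries and is no test.

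The mean log2 level of the 19 cytosolic genes was 7.42 ± 0.49 (SD, n = 3) in wild type control, 6.98 ± 0.18 in wild type Br-cGMP, 7.06 ± 0.34 in untreated pkg and 7.15 ± 0.27 in pkg Br-cGMP. The 3 libraries of wild type control stood at 7.15, 7.98 and 7.12, so the group mean was raised by 1 library. The mean log2 level of the 4 plastid genes was 8.07 ± 0.56 in wild type control, 8.29 ± 0.43 in wild type Br-cGMP, 7.73 ± 0.70 in untreated pkg and 7.14 ± 0.86 in pkg Br-cGMP. The libraries of all 4 groups overlapped in both measures.

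**Figure D3:**
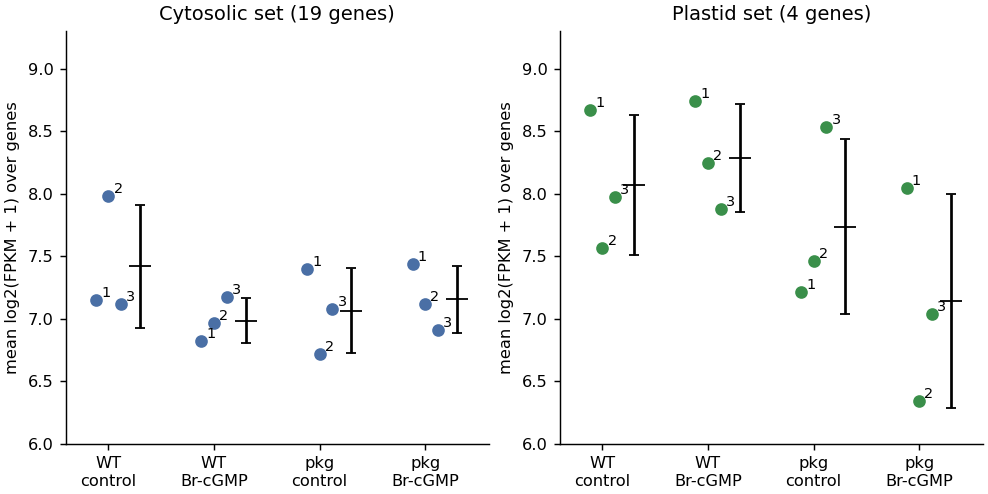
Mean log2(FPKM + 1) of the 19 tested cytosolic genes (left) and of the 4 plastid genes (right) in each library, numbered by replicate, with the mean and SD of the 3 libraries beside them. Wild type control 2 stands at 7.98 in the cytosolic set, above all other libraries, and pkg Br-cGMP 2 at 6.34 in the plastid set, below all others.

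The difference between the set means within a library hardly depends on how libraries are scaled against each other. Plastid minus cytosolic was 1.52, -0.42 and 0.85 in wild type control and 1.92, 1.28 and 0.71 in wild type Br-cGMP. It was -0.18, 0.74 and 1.45 for untreated pkg, and 0.61, -0.78 and 0.13 in pkg Br-cGMP. The group means of this difference were 0.65 ± 0.99, 1.30 ± 0.61, 0.67 ± 0.82 and -0.01 ± 0.70. Within the Br-cGMP groups, every wild type library was above every pkg library on this measure, with wild type Br-cGMP 3 at 0.71 and pkg Br-cGMP 1 at 0.61 as the closest pair. The control groups spanned almost the same range. Neither set mean by itself separated the genotypes under Br-cGMP. Among single features tested, 6.65% were lower and 6.65% higher in pkg without overlap under Br-cGMP. Plastid minus cytosolic was not among the planned measures.

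None of the 23 tested ribosomal protein genes passed the adjusted threshold in any of the 4 comparisons between groups or in the test of whether the response differed between genotypes. The share of all features called was 0% for Br-cGMP in wild type, 0% for Br-cGMP in pkg, 0.341% between genotypes without Br-cGMP, 0.341% between genotypes with it and 0.00396% for the difference between responses. At an unadjusted limma p under 0.05 the members numbered 1, 1, 0, 3 and 1 in that order, beside 5.33%, 2.71%, 5.22%, 9.47% and 2.07% of all features. On the recovered reads, limma-voom called 0 members too. Where a value misses the threshold, the data do not show that the groups were alike.

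**Figure D4:**
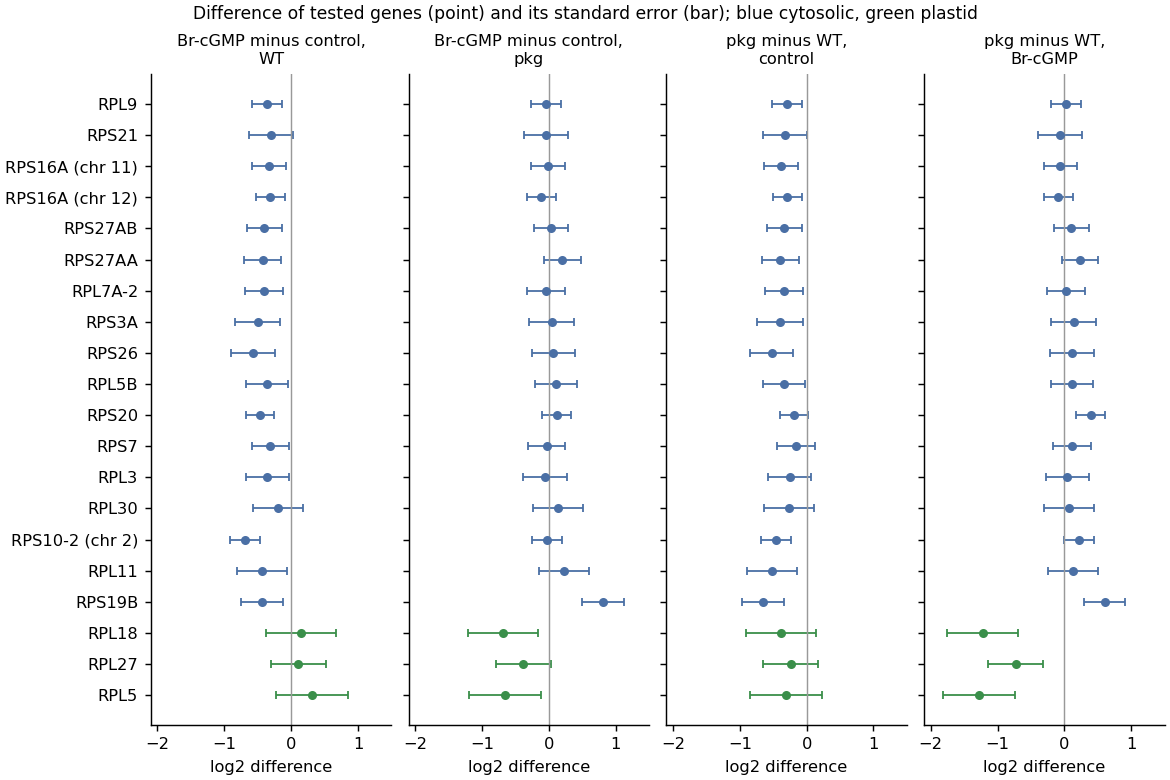
Difference of 20 tested genes on the log2(FPKM + 1) scale (point) with its standard error (bar) in the 4 comparisons between groups, cytosolic genes in blue and plastid genes in green. Cytosolic genes lie below 0 after Br-cGMP in wild type and in untreated pkg, both set against the same wild type controls, and plastid genes lie lowest in pkg against wild type under Br-cGMP.

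In wild type seedlings, all 19 tested cytosolic genes had a lower mean log2 level after Br-cGMP than in control, with a median of -0.40 and a range of -0.79 to -0.19, beside a median of -0.01 and 50.9% lower over all features tested. The 12 small subunit genes had a median of -0.43 and the 7 large subunit genes a median of -0.36. The smallest p was that of RPS10-2 on chromosome 2 (OS02G0549600, 20649580 to 20651921), a small subunit protein, at 28.1, 44.6 and 29.7 FPKM in control and 22.6, 17.3 and 21.5 after Br-cGMP (-0.69 ± 0.22, limma adjusted p = 0.882). RPS20 of the small subunit was at 189, 335 and 215 FPKM in control and 155, 167 and 198 after Br-cGMP (-0.47 ± 0.21, limma adjusted p = 0.882). In RPS20 the groups overlapped.

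The groups did not overlap for 3 of the 19 genes, RPS10-2 on chromosome 2, RPL9 and RPS16A on chromosome 12, each with all Br-cGMP libraries below all controls; among all features 4.86% were lower without overlap. No member was higher without overlap, beside 8.88% of all features. Without wild type control 2 the cytosolic median was -0.13, with 17 of 18 genes lower. These genes moved together from library to library, so the count does not stand for separate results. The set mean had an SD of 0.34 within groups over all 12 libraries. The 4 plastid genes lay higher after Br-cGMP, with 0.11 ± 0.41 for RPL27, 0.31 ± 0.54 for RPL5 and a median of 0.23 that became -0.04 without wild type control 2 and 0.01 without wild type Br-cGMP 1.

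In pkg seedlings, the cytosolic genes were split, 8 lower and 11 higher after Br-cGMP, with a median of 0.04. That median was -0.14 without pkg Br-cGMP 1, -0.11 without pkg control 2 and 0.21 without pkg control 1. The 4 genes lying furthest below 0 were RPS16A on chromosome 12 (-0.11 ± 0.21), RPL3 (-0.06 ± 0.32), RPL9 (-0.04 ± 0.22) and RPS21 (-0.04 ± 0.33), each less than its standard error, and each turned to above 0 without the libraries low in root genes. RPS19B (OS03G0424500), a small subunit gene with 3 to 24 reads per library, was at 1.36, 0.594 and 0.718 FPKM in pkg control and 3.22, 1.86 and 1.9 after Br-cGMP (0.81 ± 0.31, limma adjusted p = 1). It was the 1 cytosolic gene whose Br-cGMP libraries all lay above the controls, beside 2.71% of all features. No member was lower without overlap, beside 2.41% of all features. The 4 plastid genes were lower after Br-cGMP on average, with a median of -0.65 and with RPL18 at -0.69 ± 0.52 (limma adjusted p = 1).

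Over all features, same-numbered pkg libraries deviated together. In the plastid set only number 2 did, at 7.46 in control and 6.34 after Br-cGMP, below group means of 7.73 and 7.14. Numbers 1 and 3 lay on opposite sides of their group means. In that set pkg control 1 was the lowest of its group and pkg Br-cGMP 1 the highest. For the plastid set, Br-cGMP minus control was 0.83 for number 1, -1.12 for number 2 and -1.49 for number 3. For the cytosolic set it was 0.04, 0.40 and -0.17. Neither set moved the same way in all 3 pairs. The plastid median in pkg was -0.20 without pkg Br-cGMP 2, -0.23 without pkg control 3 and -1.16 without pkg Br-cGMP 1.

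Without Br-cGMP, all 19 cytosolic genes were lower in pkg than in wild type, with a median of -0.33 and a range of -0.65 to -0.16, beside 50.8% lower over all features. This comparison and the response of wild type share the wild type control libraries. RPS26, a small subunit protein, was at 304, 588 and 298 FPKM in wild type, against 332, 204 and 264 in pkg (-0.52 ± 0.33, limma adjusted p = 0.947), and the groups overlapped. RPS10-2 on chromosome 2 (-0.45 ± 0.22) and RPS19B (-0.65 ± 0.31, both limma adjusted p = 0.947) did not overlap, which makes 2 of 19 genes that were lower, beside 5.44% of all features, and no member was higher without overlap, beside 5.27%. Without wild type control 2 the cytosolic median was -0.06, with 14 of 18 genes lower. It was -0.16 without pkg control 2 and -0.54 without pkg control 1. The plastid median was -0.35, and it ranged from -0.75 without pkg control 3 to -0.01 without wild type control 1.

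Under Br-cGMP, the sets lay on opposite sides. The 4 plastid genes were lower in pkg than in wild type, with a median of -1.25 beside -0.02 for all features. The differences were -1.28 ± 0.54 for RPL5 (means 244 ± 77.9 and 112 ± 74.0 FPKM, limma adjusted p = 0.495), -1.22 ± 0.52 for RPL18 (limma adjusted p = 0.496) and -0.73 ± 0.41 for RPL27 (limma adjusted p = 0.619). In each of the 4 genes, pkg Br-cGMP 1 stood above the lowest wild type library, so none was free of overlap. The plastid median was -0.81 without pkg Br-cGMP 2 and -1.75 without pkg Br-cGMP 1. Over all alternatives the limma adjusted p ranged from 0.154 to 0.918 for RPL5 and from 0.13 to 0.919 for RPL18.

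The cytosolic genes were higher in pkg in 16 of 19 cases under Br-cGMP, with a median of 0.12, but without pkg Br-cGMP 1 the median was -0.08 and 13 of 19 were lower. It was 0.01 without wild type Br-cGMP 1. The 3 genes below 0 were RPS16A on chromosome 12 (-0.09 ± 0.21), RPS21 (-0.07 ± 0.33) and RPS16A on chromosome 11 (-0.06 ± 0.25), and the last pair, RPS21 and RPS16A on chromosome 11, turned to above 0 when libraries were scaled to reference gene reads. RPS20 was at 155, 167 and 198 FPKM in wild type, against 228, 224 and 228 in pkg (0.39 ± 0.21). RPS20 was 1 of 2 cytosolic genes without overlap, beside 6.65% of all features.

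The test of the difference between the responses, pkg minus wild type, had a median of 0.46 for the cytosolic genes, with 19 of 19 above 0. For the plastid genes the median was -0.90, with 4 of 4 below 0. Over all features tested it was -0.03, with 52.5% below 0. No ribosomal protein gene passed. The smallest p belonged to RPS19B (1.25 ± 0.44), RPS10-2 on chromosome 2 (0.67 ± 0.32) and RPS20 (0.58 ± 0.30), each at a limma adjusted p of 1.00. Without wild type control 2 the cytosolic median was 0.15, with 15 of 18 genes above 0. Without pkg Br-cGMP 2 the plastid median was -0.46.

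The summed level of cell division genes was highest in the same libraries as the cytosolic set. A list of 32 replication, histone and cyclin genes summed to 3412 FPKM in wild type control 2, 2002 in pkg Br-cGMP 1 and 1779 in pkg control 1, the same 3 libraries in which the cytosolic mean was highest, and to 451.5 to 811 FPKM in the other 9. By group the sum was 669 to 3412 in wild type control, 538 to 811 in wild type Br-cGMP, 478 to 1779 in pkg control and 451.5 to 2002 in pkg Br-cGMP. RPA1B, a subunit of the single-strand DNA binding protein of replication, had 86.6, 58.8 and 45.2 FPKM there and between 1.11 and 15.2 FPKM elsewhere. Of the list, 22 genes could be tested, and H2B.5, RPA3, CDKB1-1, ORC2, MCM9, CYCB2-2, MCM2 and MCM7 were listed at 0 in all libraries. Its tested genes were lower after Br-cGMP in wild type in 22 of 22 cases, with a median of -0.57, and lower in untreated pkg in 20 of 22, with a median of -0.42. They were higher after Br-cGMP in pkg in 16 of 22 cases (median 0.16) and higher in pkg under Br-cGMP in 19 of 22 (0.29). Over all features 50.9%, 50.8%, 51.4% and 51.8% were lower in the wild type response, in untreated pkg, in the pkg response and in pkg under Br-cGMP. No gene of the list passed in any comparison, the smallest limma adjusted p being 0.479.

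Without these 3 libraries the cytosolic median was -0.13 for Br-cGMP in wild type, 0.03 in pkg, -0.24 between genotypes without Br-cGMP and -0.08 with it. The plastid medians were then -0.04, -1.40, -0.36 and -1.75. The 3 libraries were chosen after seeing the data. They were also the highest in cytosolic mean, so leaving them out lowers the cytosolic level of their groups by construction. For Br-cGMP in wild type only wild type control 2 drops out, so both medians there repeat those given above without that library.

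**Figure D5:**
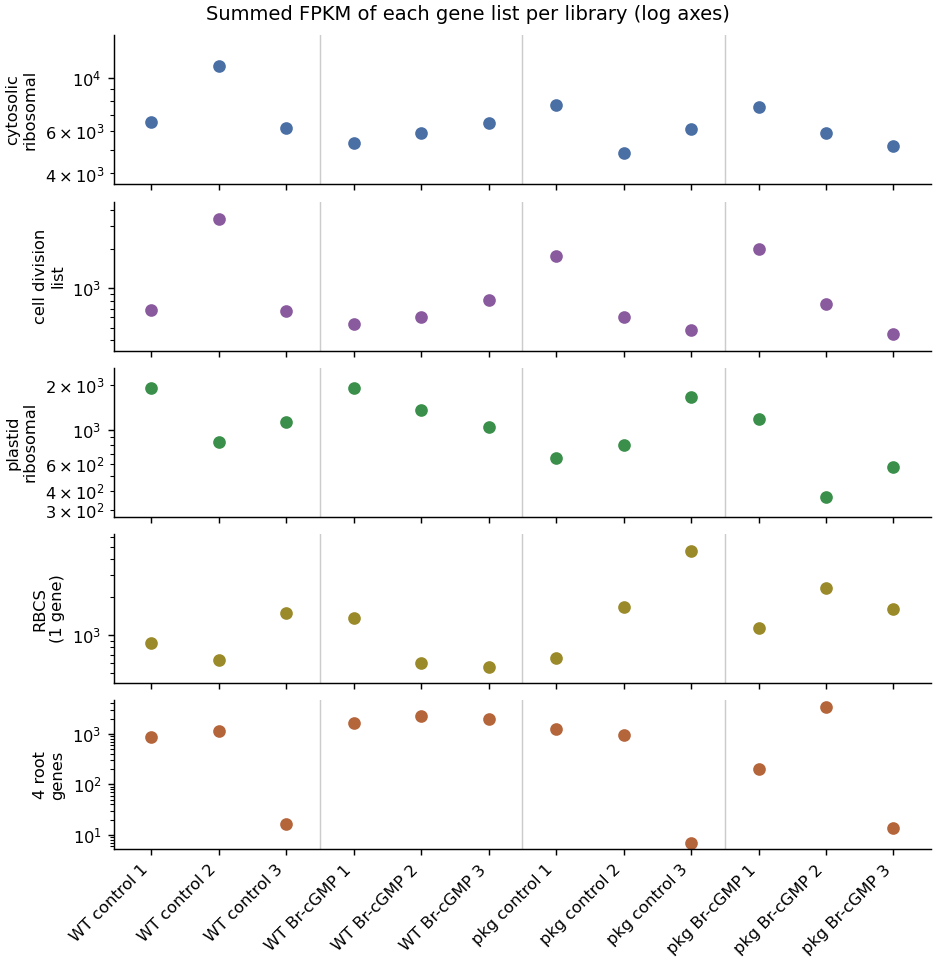
Summed FPKM per library (log axes) of the 25 cytosolic genes, the list of cell division genes, the 4 plastid genes, RBCS alone and the 4 root genes. The cytosolic and cell division sums are both highest in wild type control 2, at 11217 and 3412 FPKM, whereas RBCS is highest in pkg control 3, at 4654 FPKM, and the plastid sum is lowest in pkg Br-cGMP 2, at 363 FPKM.

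Photosynthesis genes outside the ribosome followed the order of the plastid set in some groups and not in others. RBCS, the small subunit gene of the carbon-fixing enzyme Rubisco, was at 869, 638 and 1498 FPKM in wild type control. It was at 1368, 606 and 562 in wild type Br-cGMP, at 661, 1676 and 4654 in untreated pkg and at 1133, 2337 and 1606 in pkg Br-cGMP. Within wild type Br-cGMP and within untreated pkg, its libraries stood in the order of the plastid set mean. In pkg Br-cGMP that order was reversed, with RBCS highest in number 2, where all 4 plastid ribosomal protein genes were lowest. In wild type control both were lowest in number 2, but RBCS was highest in number 3 and the plastid set in number 1. PSAH, which encodes a subunit of photosystem I and was taken outside the lists, was at 3456, 2606 and 4956 FPKM in wild type control, at 4321, 2702 and 2807 in wild type Br-cGMP, at 1668, 2976 and 4697 in untreated pkg and at 2675, 2446 and 3507 in pkg Br-cGMP. It was high in pkg control 3 and wild type Br-cGMP 1, as the plastid ribosomal protein genes were, and highest in wild type control 3, where they were not. RBCS differed by 1.06 ± 0.65 between pkg and wild type under Br-cGMP (limma adjusted p = 0.657), in the direction opposite to that of the plastid ribosomal protein genes. RBCS-A (0.81 ± 0.55) was the other tested gene of that list, which summed to 743 to 1733 FPKM in wild type control, 653 to 1639.6 in wild type Br-cGMP, 783 to 5195 in pkg control and 1338 to 2592 in pkg Br-cGMP. CAB1R and CAB2R, which encode chlorophyll-binding proteins, were listed at 0 in all libraries. The root list summed to 16.1 to 1151 FPKM in wild type control, 1659.9 to 2246 in wild type Br-cGMP, 6.91 to 1243 in pkg control and 13.9 to 3422 in pkg Br-cGMP. Without the 3 libraries low in root genes the plastid median was 0.17 for Br-cGMP in wild type, -0.15 in pkg, -0.81 between genotypes without Br-cGMP, -1.18 with it and -0.33 for the difference between responses. The cytosolic medians were then -0.56, 0.15, -0.50, 0.28 and 0.78 in the same order, with 19 of 19 genes higher after Br-cGMP in pkg. These libraries too were chosen after seeing the data. Leaving them out also leaves fewer libraries in wild type control and in both pkg groups. The cytosolic mean of pkg Br-cGMP 3 was the lowest of its group (6.91, beside 7.44 and 7.11), so leaving it out raises that group by construction. The plastid mean of pkg control 3 was the highest of its group (8.53), so leaving it out lowers that group in the same way. What part dividing cells, green tissue or roots have in these differences was not tested.

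Other genes of translation lay on the same side of 0 as the cytosolic set by their medians in all 4 comparisons, which share groups. For Br-cGMP in pkg and for pkg against wild type under Br-cGMP, the cytosolic medians were only 0.04 and 0.12. Without pkg Br-cGMP 1 they changed sign, to -0.14 and -0.08. Of 10 listed, 5 could be tested, and EIF4A3A, EIF4A3B and 1 REFA1 copy were listed at 0. No tested gene passed in any comparison, at limma adjusted p of at least 0.687. All 5 were lower after Br-cGMP in wild type (median -0.28), 4 of 5 were higher after it in pkg (0.14), 4 of 5 were lower in untreated pkg (-0.17) and 5 of 5 were higher in pkg under Br-cGMP (0.21). Over all features 50.9%, 51.4%, 50.8% and 51.8% were lower in that order. RACK1A, a scaffold protein bound to the small subunit, had 202 ± 84.8 FPKM in wild type control and 134 ± 26.1 after Br-cGMP (-0.54 ± 0.32). REFA1 (OS03G0177400), the elongation factor that brings aminoacyl-tRNA to the ribosome, differed by -0.28 ± 0.18 there. TCTP, a translation-associated growth protein, was the gene higher in untreated pkg, with 1481 ± 184 FPKM in wild type, against 1643 ± 394 in pkg (0.13 ± 0.20).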

How the data were processed

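Per the labels, libraries were made from total RNA of rice seedlings by Illumina protocols. CASAVA 1.8 and HISAT2 are named in the submitters' processing notes, while the sources used here give no build, annotation, strand setting or counter. The deposited FPKM have no stated unit. By their structure the authors counted whole reads. Each value was multiplied by feature length and divided by a step fitted to the values of its library. The result was an integer read number, to a tolerance of 0.01, for 100% of values above 0. The conversion holds a scaling between libraries made by the authors.

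limma 3.58.1 in R 4.3.3 was run on log2(FPKM + 1), with group means of 12 libraries, trended and robust moderation and a threshold of 0.05. Tables and plots used Python 3.11.15, pandas 2.3.3 and matplotlib 3.10.9. The fit was tested on simulated data. On the recovered reads limma-voom was run, and a planned test in a negative binomial model was not. P-values rest on the spread among these 12 libraries. Libraries of the 2 pkg groups with the same number had correlated deviations (0.36, 0.31 and 0.34, above 0.1 in each pair), a pairing seen in the data alone. Between genotypes, the correlations for numbers 1, 2 and 3 were -0.06, 0.03 and 0.41 in control and -0.10, 0.16 and -0.15 under Br-cGMP. Wild type control 3 and pkg control 3 thus also deviated together.

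Of the 29 members, 23 were matched to RefSeq by symbol and chromosome. Members and lists were chosen with earlier results of these data known. Named are, per set, the 3 highest and the 2 lowest levels; per comparison, the 3 smallest p and up to 4 cytosolic genes opposite to their set; and gene copies. The planned set of plastid-encoded genes had no member, and the nuclear-encoded plastid genes made up the planned set of other organelle genes. Other genes named, such as RPS3A, RPL7A-2, RPA1B, PSAH and RBCS, were chosen after their values were seen. No sequences were used here. Values of 3 tested genes that the rule names are not reported here singly, and both plots with gene names leave them out; set counts and medians include them.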

Additional observations from a re-analysis of the deposited data

How the results depend on the processing

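No alternative called a ribosomal protein gene in any comparison, over another filter, pseudocount, scaling, moderation, the compared groups alone, a replicate block, reference genes alone, limma-voom, each library left out, and the 2 sets of 3 libraries left out. Every group held the same replicate numbers, so the replicate block could not move a difference between groups. The median cytosolic shift therefore stayed at -0.40 for Br-cGMP in wild type and 0.04 in pkg. Only standard errors and p-values could change with the block, and no member was called with it. A planned test in a count model was not run. Single libraries moved the medians. For Br-cGMP in wild type the cytosolic median ranged from -0.56 to -0.13 and the plastid median from -0.04 to 0.54. For Br-cGMP in pkg they ranged from -0.14 to 0.21 and from -1.16 to -0.20. Between genotypes without Br-cGMP they ranged from -0.54 to -0.06 and from -0.75 to -0.01, with Br-cGMP from -0.08 to 0.28 and from -1.75 to -0.81, and for the difference between responses from 0.15 to 0.66 and from -1.41 to -0.46. The plastid median in pkg was -1.40 without the 3 libraries highest in cell division genes. The cause of these movements was not tested.

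The count of all features called for Br-cGMP in wild type was 0, against 5 with no filter, 2 with a pseudocount of 0.1, 4 without trend and robust moderation, 3 with the compared groups alone and 0 to 1 with single libraries left out. For Br-cGMP in pkg it was 0 to 2 with single libraries left out. Between genotypes without Br-cGMP it was 86, against 43 with the compared groups alone, 12 with reference genes only, 29 without the libraries low in root genes, 50 without those highest in cell division genes and 49 to 88 with single libraries left out. With Br-cGMP it was 86, against 44, 8 and 35 in the first 3 of these and 51 to 200 with single libraries left out. For the difference between responses it was 1, against 2 with no filter or a pseudocount of 0.1, 0 with reference genes only, by limma-voom and without either set of 3 libraries, and 1 to 3 with single libraries left out. 

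Differences near 0 turned sign. In pkg, without the libraries low in root genes, RPS16A on chromosome 12 stood at 0.0822, RPL3 at 0.15, RPL9 at 0.038 and RPS21 at 0.0628, and without those highest in cell division genes RPS21 stood at 0.017. With single libraries left out they ranged from -0.29 to 0.018, -0.27 to 0.14, -0.19 to 0.0666 and -0.26 to 0.24. Between genotypes under Br-cGMP, RPS21 stood at 0.0004 scaled to reference gene reads and 0.12 without the libraries low in root genes, and RPS16A on chromosome 11 at 0.0083 and 0.0271; with single libraries left out they ranged from -0.29 to 0.12 and -0.19 to 0.0271.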
